A study of Mus musculus with 9 samples.

Results

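The 34 genes described here encode the core machinery of apoptosis and the p53 pathway, and they were taken by symbol from a list of pathway genes. The rule itself uses no measured value, but the list was drawn up with earlier results of these data known. All 34 were found among 49603 RefSeq gene entries. For each gene, every deposited interval that overlapped its RefSeq span with 2 kb added at either end was taken. The series captured chromatin from germ cells of wild-type ICR mouse testes at postnatal day 35. Biotinylated probes against the long noncoding RNA Gm4665 were used in 3 samples, control probes to the bacterial gene LacZ in 3 samples, and 3 samples were input DNA. The titles call the captured RNA LncRNA-20, the same protocol text stands on all 9 samples, and the groups were therefore read from the titles. No label ties a replicate to its own animal, and the replicate spread may be partly technical.

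Apoptosis proceeds along a mitochondrial and a death receptor route. In the mitochondrial route, BH3-only proteins counteract the survival members of the BCL2 family and release the pore-forming members BAX and BAK, after which APAF1 and caspase-9 form the apoptosome. In the receptor route, FAS and related receptors recruit adaptors and caspase-8. Inhibitor of apoptosis proteins restrain caspases, and p53 induces several of these genes. Germ cells are removed by apoptosis throughout spermatogenesis, and male mice that lack Bax accumulate germ cells and are sterile.

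Each deposited row gives an interval and, per replicate, a fold enrichment relative to input on a linear scale. The Gm4665 list held 38711 intervals on the standard chromosomes and the LacZ list 9448, with median mean folds of 9.99 and 14.1. The lists were normalized separately, so a fold is compared only within its own list, and a percentile below is the rank of a mean fold in that list. LacZ replicate 1 had the highest fold in 95.9% of LacZ intervals. Peak lists hold no expression values, so the labelled cell type was not checked against markers here. Library depth is unknown, and the deposited pileup at the summits of the members' Gm4665 intervals ran from 15 to 113, with no replicate named for it.

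Of the 34 genes, 14 had a Gm4665 interval (41.2%) and 6 had a LacZ interval (17.6%). Among 21779 protein-coding genes, the kind to which all members belong, the shares were 39.3% for Gm4665 and 16.9% for LacZ. Over all gene entries, many of them short and noncoding, they were 27.1% for Gm4665 and 10.6% for LacZ. The members' shares thus lay close to those of protein-coding genes in both lists. Intervals of both lists were found at 4 members, beside 11.1% of protein-coding genes, and 18 members had none from either list. The 14 genes held 24 Gm4665 intervals and the 6 genes held 7 LacZ intervals. No Gm4665 interval at a member overlapped a LacZ interval. Leaving out every Gm4665 interval that did so lowered the Gm4665 share of all gene entries only from 27.1% to 26.9%. The lack of overlap is therefore not read as a trait of the members.

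By branch, a Gm4665 interval was present at 6 of 13 genes of the BCL2 family, 3 of 4 genes of the caspase and apoptosome branch, 2 of 6 inhibitor genes, 3 of 5 genes of the p53 branch and 0 of 6 death receptor and adaptor genes. LacZ intervals were present at 4 genes of the BCL2 family, at Apaf1 in the caspase and apoptosome branch, at Ripk1 in the receptor branch, and at 0 genes of the inhibitor and p53 branches. With 4 to 13 genes in a branch, these counts are a description and were not tested.

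**Figure D1:**
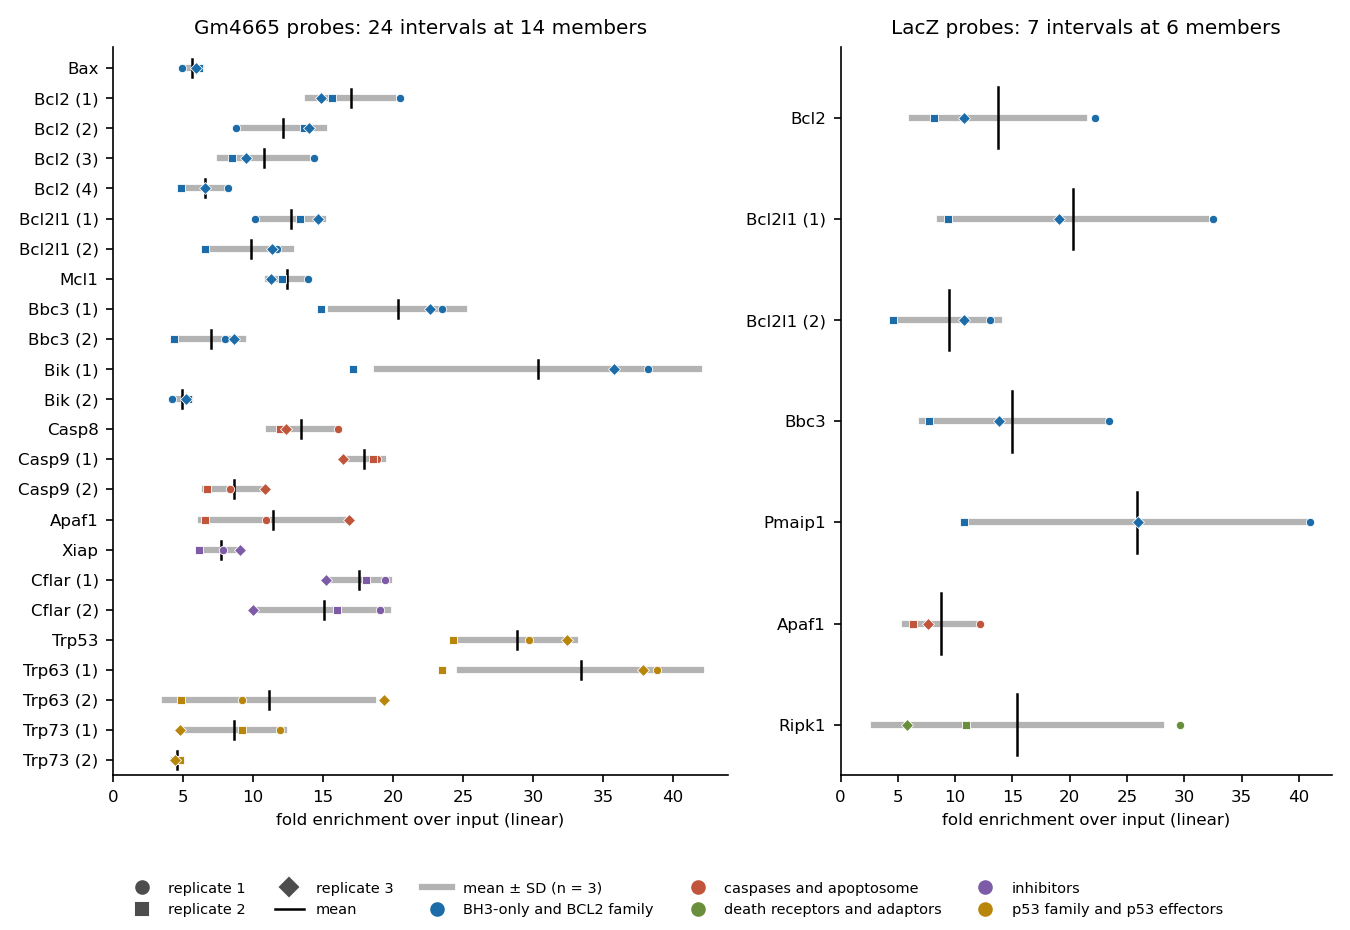
Fold enrichment over input (linear axis) of every interval at the 34 genes, with Gm4665 probes on the left and LacZ probes on the right; symbols are the 3 replicates, the black line is their mean, the grey bar is mean ± SD (n = 3), and a number in brackets ranks a gene's intervals by mean fold. The strongest Gm4665 intervals lie at Trp63, Bik and Trp53, and replicate 1 is the highest point of all 7 LacZ intervals.

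Within the p53 branch, all 3 family members had an interval and the 2 effectors did not. Trp63, which encodes p63, a developmental and germ line relative of p53, held the strongest interval of the 34 genes. It lay inside the gene at chr16:25792309-25793221 (mm10) with folds of 38.9, 23.5 and 37.8 in replicates 1, 2 and 3 (mean 33.4 ± 8.58, SD, n = 3), at the 95.35 percentile of the list. Another Trp63 interval, chr16:25830682-25831043, had folds of 9.21, 4.86 and 19.3. Its replicate spread was the widest of all 24 intervals, with a coefficient of variation of 66.7%, and its level was therefore poorly fixed.

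Trp53 encodes p53 itself, the transcription factor that links DNA damage to arrest and death. Its single interval, chr11:69592200-69593176, had folds of 29.7, 24.3 and 32.5 (mean 28.8 ± 4.15, SD, n = 3) in the 3 replicates. The RefSeq span of Trp53 runs from 69580348 to 69591873 on the plus strand, so the interval began 326 bp beyond the 3′ end and its summit lay 12401 bp from the annotated start. No other gene entry lay within 2 kb of it. The interval belongs to the flank and not to the promoter of Trp53, and without flanks Trp53 would have had none.

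Trp73, which encodes p73, a p53 relative active in development and the nervous system, had 2 intervals, both below the list median. The stronger one, chr4:154057599-154058033, had folds of 11.9, 9.18 and 4.80 in the 3 replicates and a summit 1530 bp from the 3′ end of the gene. The other, chr4:154116534-154116812, had 4.50, 4.79 and 4.42. Its mean of 4.57 exceeded only 0.708% of Gm4665 intervals, although the 3 replicates were the closest to each other of all members' intervals. Neither Mdm2, the ubiquitin ligase gene that p53 induces and that degrades p53, nor Cdkn1a, the cell cycle inhibitor gene that p53 induces, had an interval of either list. The nearest Gm4665 interval lay 4779 bp from Mdm2 with folds of 9.55, 7.04 and 15.2, the closest approach of a gene left outside the 2 kb flank. At Cdkn1a it lay 38139 bp away, and the nearest LacZ interval 8947 bp away.

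The BCL2 family held 12 of the 24 Gm4665 intervals. Among the genes for pore-forming effectors, Bax had 1 weak interval inside the gene, chr7:45464182-45464526, with folds of 4.92, 6.11 and 5.88 in the 3 replicates. Its mean of 5.64 ± 0.632 (SD, n = 3) exceeded 6.36% of the list. Bak1 had none, and the nearest Gm4665 interval was 10243 bp away with a mean fold of 5.65.

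All 3 survival genes of the family among the members had Gm4665 intervals. This does not extend to the whole family. Outside the members, Bcl2l2, Bcl2l10, Bcl2a1a, Bcl2a1b and Bcl2a1d, all under 10 kb, had no interval of either list. Bcl2, the founding member, spans 176 kb on chromosome 1 and held 4, more than any other of the 34 genes. The strongest, chr1:106626981-106627749, had folds of 20.5, 15.7 and 14.8 in the 3 replicates, and the other 3 had means of 12.1, 10.8 and 6.54. All 4 summits lay at least 22939 bp from the annotated start. A LacZ interval near the 3′ end of Bcl2, chr1:106543769-106544448, had folds of 22.2, 8.18 and 10.8, and the closest interval of the Gm4665 list lay 16581 bp from it.

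Bcl2l1, which encodes the survival protein BCL-XL, had 2 intervals of each list. The stronger Gm4665 interval, chr2:152760268-152761059, had folds of 10.2, 13.4 and 14.6 in the 3 replicates and a summit 1880 bp inside the 3′ end. A LacZ interval lay 2100 bp from it, past that end, at chr2:152757367-152758167, with folds of 32.5, 9.40 and 19.03. Both of these intervals were also within 2 kb of Cox4i2, a gene for a subunit of cytochrome oxidase. The LacZ interval was within 2 kb of the gene entry Gm32057 as well. The 3′ end of Bcl2l1 was therefore marked by both probe sets, at the 64.3 percentile of the Gm4665 list and the 77.2 percentile of the LacZ list. The remaining intervals, inside the gene, had mean folds of 9.84 ± 2.87 with the Gm4665 probes and 9.49 ± 4.38 with the LacZ probes (SD, n = 3 each).

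Mcl1, a survival gene with a short-lived product, had 1 Gm4665 interval at chr3:95661123-95661926 with folds of 13.9, 12.1 and 11.3 in the 3 replicates. The mean was 12.4 ± 1.37 (SD, n = 3), and the nearest LacZ interval was 164534 bp from the gene. Its summit lay 2816 bp from the annotated start, one of 4 of the 20 Gm4665 summits with an annotated start that lay within 5 kb of it.

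Of the 8 BH3-only genes, Bbc3 and Bik had Gm4665 intervals. Bik, which encodes a BH3-only protein of the endoplasmic reticulum, had an interval of 1542 bp, the widest at any member, over its lower-coordinate end at chr15:83525629-83527170. Its folds were 38.2, 17.2 and 35.8 in replicates 1, 2 and 3, with replicate 2 the lowest. The mean of 30.4 ± 11.5 (SD, n = 3) was 36.98 without replicate 2. A weak interval near the other end of Bik, also within 2 kb of the gene entry Gm46495, had 4.22, 5.32 and 5.21. No LacZ interval lay within 95 kb of Bik.

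Bbc3, which encodes PUMA, a BH3-only protein induced by p53, had Gm4665 intervals on either side of its start region and a LacZ interval over it. The stronger Gm4665 interval, chr7:16306656-16307399, lay 998 bp before the RefSeq span, with folds of 23.5, 14.9 and 22.6 in the 3 replicates (mean 20.3 ± 4.75, SD, n = 3). A weaker one inside the gene, chr7:16310769-16311383, had 8.01, 4.37 and 8.64. Between them, separated by 1558 bp and 532 bp, lay a LacZ interval, chr7:16308958-16310236, with folds of 23.4, 7.71 and 13.8. Control probes thus gave an interval over the start region itself, at the 55.2 percentile of their list.

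Promoter windows, from 250 bases before to 50 after an annotated start, were available from RefSeq (GRCm38.p6, the sequence of mm10) for 29 of the 34 genes and not used for Pmaip1, Bik, Tnfrsf10b, Tradd and Trp63. No Gm4665 interval overlapped a window of any of the 29, beside 1.98% of the 27025 genes in the table. This count leaves out Bik, whose strongest Gm4665 interval crossed the lower-coordinate end of the gene. Whether that end is the Bik start was not determined here. A LacZ interval overlapped the windows of 1 member, Bbc3, beside 0.788% of genes. All 3 annotated Bbc3 windows were under that LacZ interval, the first entirely and the others in part. The first and second are shown because no promoter window of another member was covered by an interval of either list. Both are on the plus strand of chromosome 7, from 16309333 to 16309632 and from 16310011 to 16310310, and capitals mark GC boxes (GGGCGG on either strand, runs of overlapping matches joined).
Bbc3 first start: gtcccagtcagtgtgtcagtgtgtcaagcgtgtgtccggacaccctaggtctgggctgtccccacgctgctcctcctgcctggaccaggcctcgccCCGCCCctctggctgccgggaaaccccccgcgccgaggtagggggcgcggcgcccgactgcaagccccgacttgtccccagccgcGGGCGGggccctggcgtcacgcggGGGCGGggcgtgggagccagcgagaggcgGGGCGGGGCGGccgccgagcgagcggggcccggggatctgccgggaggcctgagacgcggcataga
Bbc3 second start: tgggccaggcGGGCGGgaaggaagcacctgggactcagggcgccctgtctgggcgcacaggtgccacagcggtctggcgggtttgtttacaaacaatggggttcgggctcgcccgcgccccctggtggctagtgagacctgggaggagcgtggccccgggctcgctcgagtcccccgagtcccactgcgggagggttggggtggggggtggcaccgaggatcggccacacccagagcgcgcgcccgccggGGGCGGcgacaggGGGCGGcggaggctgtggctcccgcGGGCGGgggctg

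These windows had a GC content of 76% and 74.7%, beside a median of 52.7% over 32851 windows, and held 5 and 4 GC boxes, counted with overlaps. A GC box was present in 35.7% of all windows. Neither held a TATA box (TATAAA, either strand), which 13.6% of windows held, or a match to the p53 half-site, which 8.36% of windows held. Half-site matches were found in 8 of the 43 windows of members, 1 each at Bax, Birc2, Birc5, Bmf, Cdkn1a, Fasl, Mdm2 and Trp53, with that of Cdkn1a holding 2 matches. Of these 8 genes, Bax and Trp53 had a Gm4665 interval and none had a LacZ interval. Letters that match a motif are a description of the window and not a binding site. Likewise, a window without a match to the pattern used, as at Bbc3, may still hold a p53 site.

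The other 6 BH3-only genes had no Gm4665 interval. Bid, whose product carries the receptor signal to mitochondria, had its nearest one 9166 bp away, and Bad, Bcl2l11 (BIM), Hrk and Bmf had theirs 27068, 27110, 57473 and 116122 bp away. Pmaip1, which encodes NOXA and is induced by p53, had a LacZ interval alone, chr18:66467039-66468411, with folds of 40.9, 10.7 and 25.95 in the 3 replicates. It lay 1480 bp beyond the higher-coordinate end of the gene, whose strand was not used here. It was the strongest LacZ interval at a member and the one farthest from a span yet inside the flank. The nearest Gm4665 interval to Hrk, though outside its flank, was strong, with folds of 52.3, 45.1 and 47.6 at the 98.8 percentile. The same held for Bcl2l11, with 59.6, 27.4 and 45.7 at the 98.3 percentile.

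**Figure D2:**
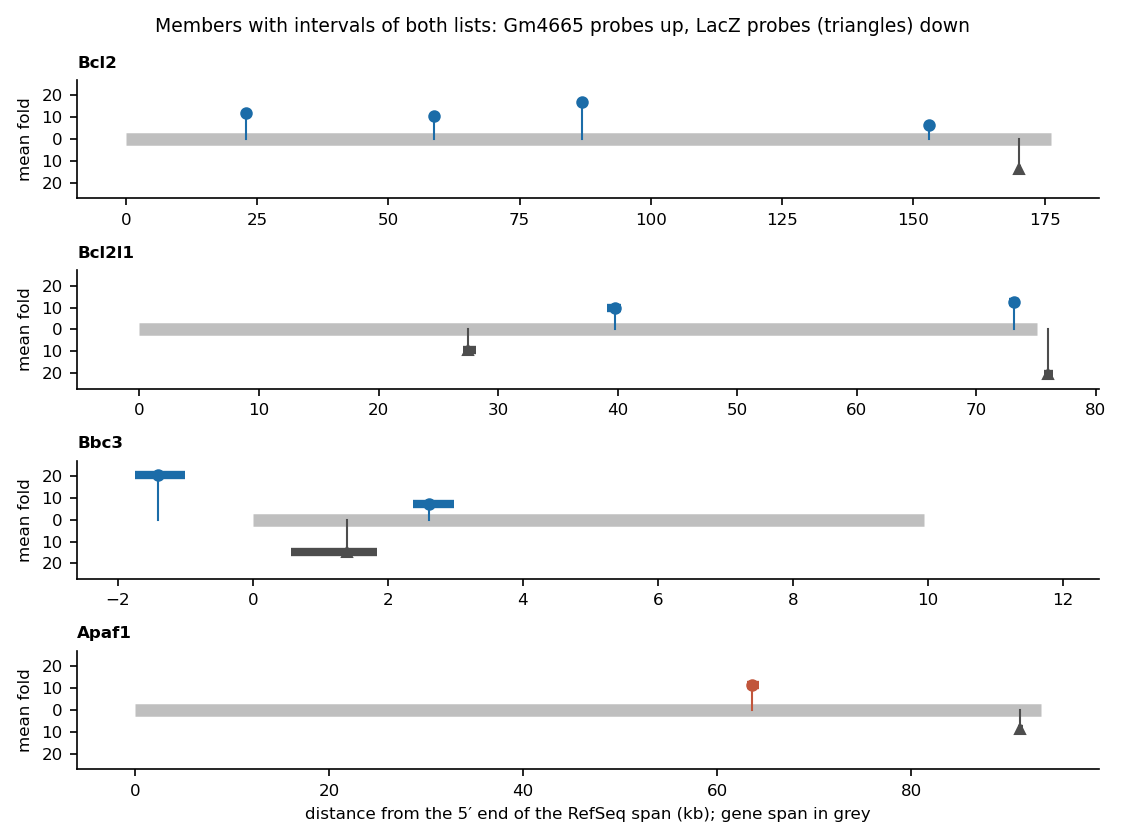
Maps of Bcl2, Bcl2l1, Bbc3 and Apaf1, the 4 genes with intervals of both lists, drawn from the 5′ end of the RefSeq span (kb, to scale within each panel, gene span in grey). Height is the mean fold over 3 replicates, Gm4665 intervals upward as circles and LacZ intervals downward as triangles, with bars for interval width. No 2 intervals overlap, and at Bbc3 the LacZ interval lies between the 2 Gm4665 intervals.

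In the caspase and apoptosome branch, Casp8, Casp9 and Apaf1 had Gm4665 intervals. Casp9, the initiator of the mitochondrial route, had the stronger of its intervals at chr4:141813008-141813730 with folds of 18.9, 18.6 and 16.4 in the 3 replicates (mean 17.95 ± 1.32, SD, n = 3). That interval was also within 2 kb of Cela2a, an elastase gene. The other, chr4:141800727-141801303, had 8.38, 6.72 and 10.8. The nearest LacZ interval lay 2674 bp from Casp9, just outside the flank, with folds of 30.9, 8.14 and 15.04.

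Casp8, the initiator of the receptor route, had 1 interval in its 3′ part, chr1:58839544-58840442, with folds of 16.03, 11.9 and 12.3 (mean 13.4 ± 2.27, SD, n = 3). Apaf1, the scaffold of the apoptosome, had folds of 10.9, 6.56 and 16.9 at chr10:91018418-91019615. A LacZ interval near the 3′ end of Apaf1, chr10:90991214-90991738, had 12.2, 6.36 and 7.60, and 26679 bp separated the 2 intervals. Casp6, an effector caspase gene, had no interval of either list, with the nearest Gm4665 interval 13445 bp away.

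Cflar, which encodes the caspase-8 inhibitor FLIP, lies 36.35 kb from Casp8 on chromosome 1. Its Gm4665 intervals, chr1:58754349-58755249 and chr1:58729098-58730159, had folds of 19.4, 18.03 and 15.2 and of 19.1, 15.99 and 10.01 in the 3 replicates. With the interval in Casp8, this receptor-route pair held 3 Gm4665 intervals, at the 66.95 to 78.9 percentiles. The nearest LacZ interval was 432594 bp from Cflar and 481264 bp from Casp8.

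Among the other inhibitor genes, the X-linked caspase inhibitor gene Xiap had 1 Gm4665 interval, chrX:42103240-42103779, with folds of 7.84, 6.12 and 9.05 in the 3 replicates. The mean of 7.67 ± 1.47 (SD, n = 3) lay at the 29.98 percentile of the list. Birc2 and Birc3, neighbouring genes for ubiquitin ligases of death receptor signalling, had none within 89579 and 95723 bp, although they share chromosome 9 with Gm4665, at a distance of 107.3 Mb. Birc5, which encodes the mitotic protein survivin, and Diablo, whose product relieves caspase inhibition, had none within 22563 and 8584 bp. No LacZ interval was listed at any of the 6 genes of this branch.

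No Gm4665 interval was listed at the 6 death receptor and adaptor genes. The nearest lay 6541 bp from the adaptor gene Tradd, 9274 bp from the ligand gene Fasl, 13410 bp from the kinase gene Ripk1, 32968 bp from the TRAIL receptor gene Tnfrsf10b, 59663 bp from the adaptor gene Fadd and 85849 bp from the receptor gene Fas. The interval near Fasl was strong, with folds of 60.3, 25.9 and 45.7 in the 3 replicates, and the one near Fas was weak, with a mean of 4.57 ± 0.855 (SD, n = 3). A LacZ interval lay inside Ripk1 at chr13:34026558-34027885, with folds of 29.6, 10.9 and 5.77. Its coefficient of variation of 81.4% was the highest of the 7 LacZ intervals, and replicate 1 set its mean of 15.4, which was 8.34 without it.

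**Figure D3:**
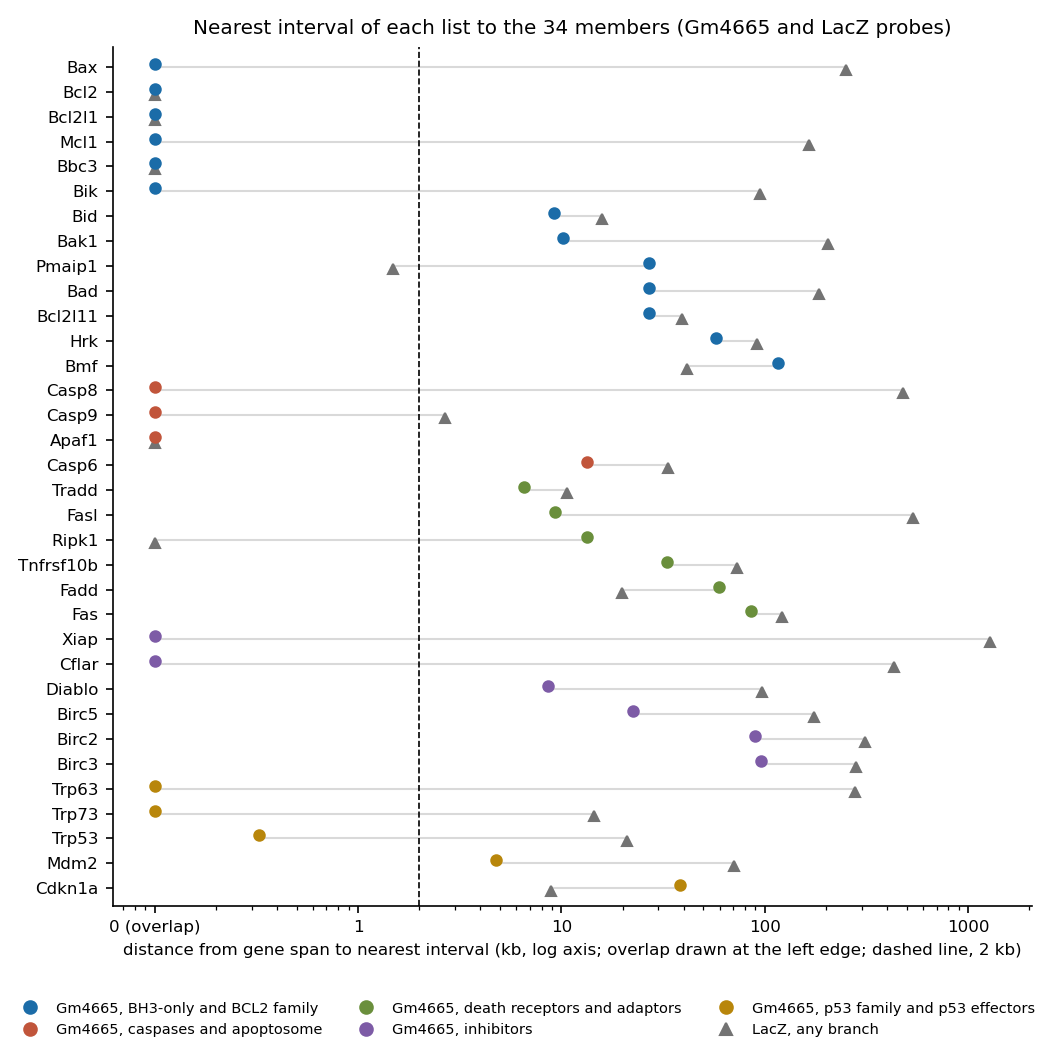
Distance in kb (log axis) from the span of each of the 34 genes to the nearest Gm4665 interval (coloured circles, by branch) and the nearest LacZ interval (grey triangles); overlap is drawn at the left edge and the dashed line is the 2 kb flank. Circles of the 6 death receptor and adaptor genes all lie right of the dashed line, and the closest circle outside it is that of Mdm2 at 4779 bp.

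The counts were next set beside gene length. All 7 members over 50 kb (Bcl2, Bcl2l1, Casp8, Apaf1, Xiap, Trp63 and Trp73) had a Gm4665 interval, as did 80% of 4935 protein-coding genes of that length. Of the 27 shorter members, 7 had one (25.9%), beside 27.4% of 16844 shorter protein-coding genes. Within finer classes, 3 of 10 members under 10 kb had one beside 13.5% of protein-coding genes, 2 of 8 from 10 to 20 kb beside 30.2%, and 2 of 9 from 20 to 50 kb beside 46.7%. If each member had the share of its class, 13.3 of 34 would hold a Gm4665 interval and 5.29 a LacZ interval, close to the observed 14 and 6. The death receptor and adaptor genes span 4.12 to 37.1 kb, with Fas and Ripk1 in the 20 to 50 kb class and the others under 20 kb. Whether length accounts for their lack of Gm4665 intervals was not tested.

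**Figure D4:**
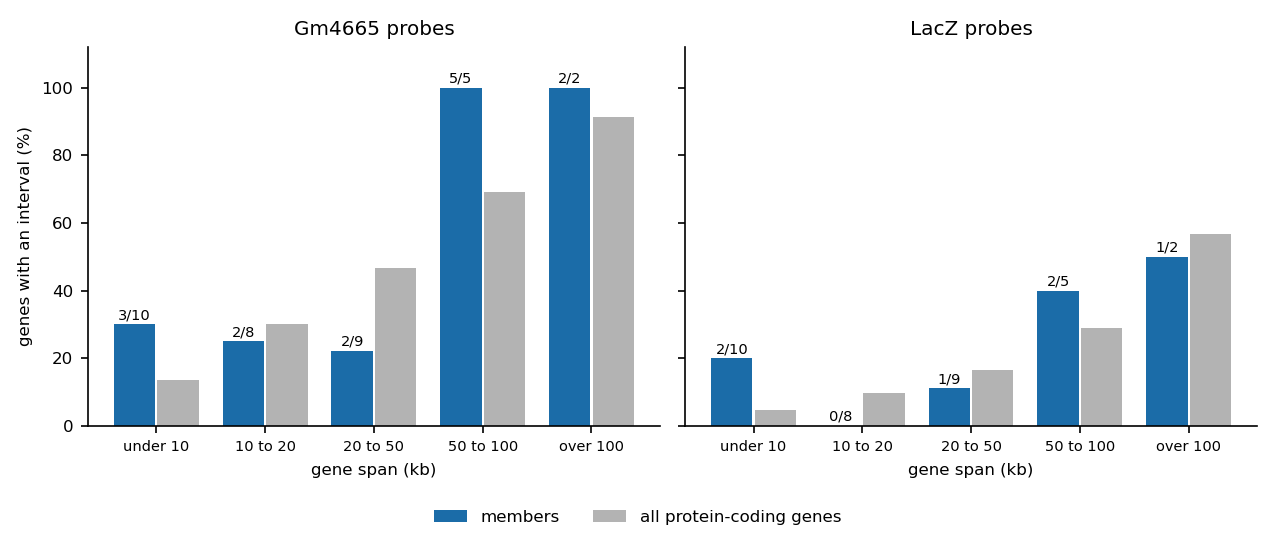
Share of genes with an interval (%, bars from 0) by gene span in kb, members in blue with counts above each bar and all protein-coding genes in grey, for Gm4665 probes (left) and LacZ probes (right). For Gm4665 the grey bars climb from 13.5% under 10 kb to 91.4% over 100 kb, and all 7 members over 50 kb have an interval.

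Interval density was likewise close to that of other genes. The flanked spans of the 34 genes held 17.97 Gm4665 intervals per Mb, beside 16.5 over protein-coding genes, and 5.24 LacZ intervals per Mb, beside 4.57. In strength, the strongest Gm4665 interval per gene had a median mean fold of 15.2 over the 14 members, beside 13.3 over the 8564 protein-coding genes with an interval (middle 50%, 8.49 to 21.7). It was above the list median at 11 of 14 members and at 66% of those protein-coding genes. More than 1 Gm4665 interval was found at 8 of the 14 members and at 43.9% of those genes.

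The replicate pattern at these genes was close to that of the whole list. Replicate 1 was highest in 13 of the 24 Gm4665 intervals and replicate 2 lowest in 13, beside 56.3% and 63.0% of the list. The median coefficient of variation was 23.7% at members and 21.9% in the list. In the LacZ list, replicate 1 was highest in all 7 intervals at members, and the median coefficient of variation was 54.3%, beside 54.2% in the list. Replicates thus spread less around the Gm4665 means than around the LacZ means.

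Gm4665 summits were spread along the genes. Of the 20 summits at members with a strand in the promoter table, 1 lay within 2 kb of an annotated start (574 bp, the weaker Bbc3 interval) and the median distance was 27675 bp. Summits at Bik and Trp63, for which no strand was used, are not among them, while 4 of the 20 lie in Bcl2, which spans 176 kb. Distances to starts over other genes are not given here, so these values are not read as particular to the members. Beyond the gene midpoint, on the 3′ side, lay 12 of the 20, beside 50.1% of summits over all protein-coding genes with a strand. Of the 24 intervals, 22 touched the gene span and 2, at Bbc3 and Trp53, lay in a flank alone. Exons and introns were not separated, because the gene table gives spans only.

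**Figure D5:**
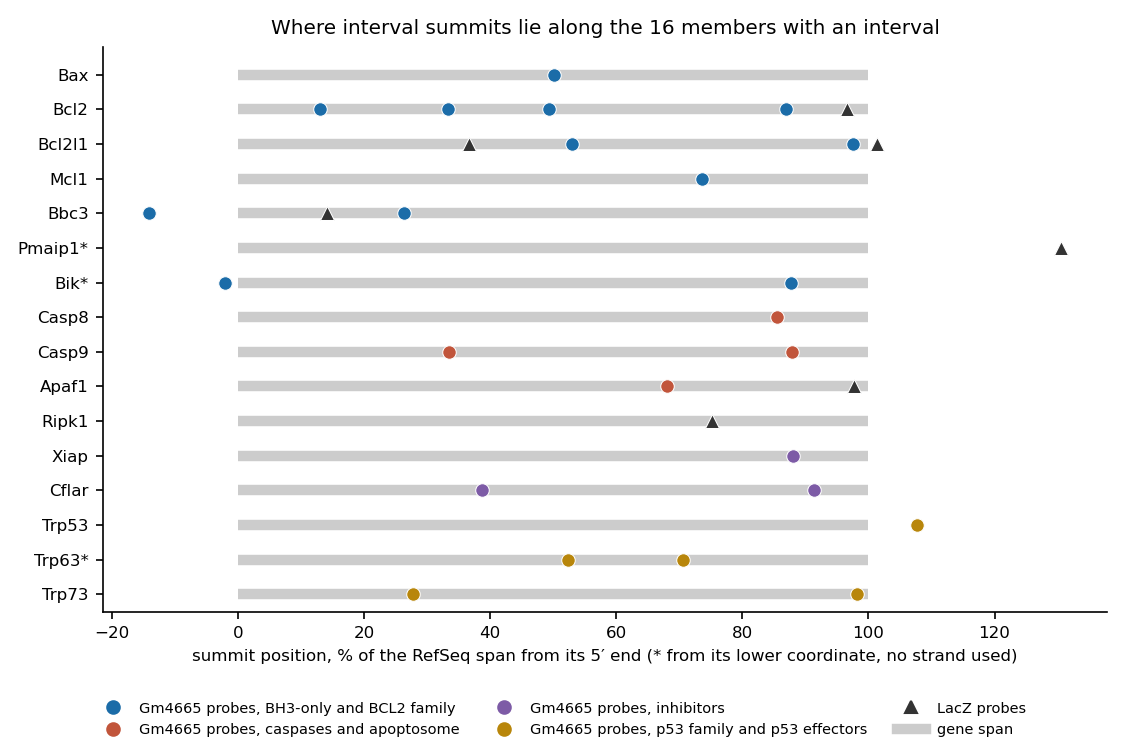
Position of interval summits along the 16 genes with an interval of either list, as % of the RefSeq span from its 5′ end (from the lower coordinate for genes marked *, whose strand was not used); circles are Gm4665 intervals coloured by branch, triangles LacZ intervals, grey bars the spans. The Trp53 circle lies past 100% and the stronger Bbc3 circle before 0%, and the other circles of genes with a strand lie within the span.

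Of a further 84 genes of the same pathways, 35 had a Gm4665 interval (41.7%) and 12 a LacZ interval (14.3%), beside 39.3% and 16.9% of protein-coding genes. Intervals of both lists were found at 5 of the 84, beside 11.1% of protein-coding genes. By branch, Gm4665 intervals were present at 3 of 10 further BCL2 family genes, 2 of 10 caspase and apoptosome genes, 7 of 15 death receptor genes, 3 of 7 inhibitor genes and 20 of 42 regulators and targets of p53. Bcl2l14, a BCL2 family gene, had the strongest, with folds of 34.2, 33.8 and 27.3 in the 3 replicates. Gadd45a, a short stress gene induced by p53, had 29.3, 18.6 and 27.1, and Mdm4, which encodes a partner of MDM2 that restrains p53, had 20.3, 20.8 and 18.3. In the receptor branch, Tnfrsf1a, the main TNF receptor gene, had 24.99, 13.9 and 13.6, and Tnfsf10, the TRAIL gene, had 15.8, 13.3 and 23.03. Lower values were found at Birc6, a giant inhibitor gene with 5 Gm4665 intervals and a highest mean of 13.7 ± 4.60, at Naip5 (12.98 ± 3.33) and at Bcl2l13 (10.8 ± 0.552; SD, n = 3 each). Of the genes named in this paragraph, Birc6 and Bcl2l13 also had 1 LacZ interval each. Their LacZ mean folds were 7.0 ± 3.8 and 17.3 ± 11.0 (SD, n = 3 each).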

How the data were processed

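Chromatin captured with Gm4665 or LacZ probes and input DNA were sequenced, 3 samples each. The deposited lists hold linear fold enrichments over input, 1 per replicate, and a pileup signal, made by the authors with MACS2 per the file names and headers. Version, settings, aligner and the joining of replicates were not given in the sources used here. Coordinates are 1-based on mm10, the build in the submitters' processing notes.

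Repeated rows, 649 Gm4665 and 165 LacZ, became 1 interval each, keeping the maximum per replicate, and 116 and 25 intervals off chromosomes 1 to 19, X and Y were left out. Overlap meant at least 1 bp with the span and 2 kb flanks. Gene entries starting below 3 Mb, save on Y, were left out. The counting was tested on simulated data. Python 3.11.15, pandas 2.3.3, numpy 2.4.6 and matplotlib 3.10.9 were used.

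All 34 members are named, each with its intervals and the strongest by replicate, and at most the 2 further genes per branch with the highest Gm4665 fold, some of which are not reported here. Aen, Parp1, Atr and Hipk2 fall outside this rule and were chosen after their values were seen. The same holds for Bcl2l2, Bcl2l10, Bcl2a1a, Bcl2a1b and Bcl2a1d. Members, branches and further genes were chosen with earlier results of these data known. All replicates of a list share 1 interval set, so positions were not tested across samples and no p-value is given. Alternatives were other flanks, midpoints, fold minimums, list sizes, backgrounds and replicates left out.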

Additional observations from a re-analysis of the deposited data

How the results depend on the processing

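Of 74 values compared under 12 alternatives, 62 stayed within 1.5 times, or for the median fold within 1 SD of the replicates. The number of members with a Gm4665 interval was 13 without flanks, 15 with 5 kb and 19 with 10 kb, and with LacZ 5, 7 and 8. Among protein-coding genes, the Gm4665 shares were 35.03% without flanks, 45.1% with 5 kb and 53.08% with 10 kb. The LacZ shares of protein-coding genes at the same settings were 15.43%, 19.02% and 22.42%. Flanks of 10 kb lifted the share of all gene entries to 43.2% for Gm4665 and 16.3% for LacZ, since more sequence was searched. With protein-coding genes as the background and flanks of 2 kb, the LacZ share was 16.9%. With only the 9448 strongest Gm4665 intervals, as many as the LacZ list holds, 7 members kept one (Bcl2, Bbc3, Bik, Casp9, Cflar, Trp53 and Trp63), with 7 intervals. Of these members, 2 had both lists and 3 exceeded the median of the shortened list. The median strongest fold was 20.3, and 8 further genes had an interval. The share of all gene entries with one was 9.76%, beside 10.6% for the LacZ list. At this equal length, 15.4% of protein-coding genes had a Gm4665 and 16.9% a LacZ interval, and 7 and 6 members did. The median strongest fold was 12.7 without flanks, which drop Trp53 and the stronger Bbc3 interval, and 13.4 with 5 kb, which adds Mdm2. Without each replicate in turn it was 14.62 to 16.01, 11 members stayed above the list median, and Trp63 stayed first, while Trp53 passed Bik without replicate 1. No paired analysis was possible because no Gm4665 interval at a member overlapped a LacZ interval, which leaves no value to pair, and no result comes from a test. Depth is unknown, so its part in the weakest intervals was not tested, and absence from a list does not show absence of signal.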

Other observations

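Bid shared its nearest intervals with its neighbour Bcl2l13. The nearest Gm4665 interval to Bid, 9166 bp away, lay at Bcl2l13, with folds of 10.4, 10.5 and 11.4 in the 3 replicates. The nearest LacZ interval to Bid, 15775 bp away, had a mean fold of 17.3 ± 11.0 (SD, n = 3), the value of the LacZ interval at Bcl2l13.

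Among the 84 further genes, the 2 strongest LacZ intervals lay at genes without a Gm4665 interval, which were chosen after their values were seen. Aen, a nuclease gene induced by p53, had a LacZ mean fold of 34.3 ± 24.3, and Parp1, which encodes a DNA damage sensor cut by caspases, had 32.4 ± 17.2 (SD, n = 3 each). Both exceeded the strongest LacZ interval at the 34 genes, 25.9 ± 15.1 at Pmaip1 (SD, n = 3). Atr, a DNA damage kinase gene of 95.6 kb, had 2 LacZ intervals and no Gm4665 interval. Hipk2, a kinase gene of the p53 response that spans 188.8 kb, had 3 Gm4665 and 2 LacZ intervals. Of protein-coding genes from 50 to 100 kb, 69% had a Gm4665 and 28.8% a LacZ interval. Over 100 kb the shares were 91.4% and 56.8%.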
